A study of Homo sapiens with 12 samples.

Results

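The 10 genes that encode the pore subunits of voltage-gated calcium channels, CACNA1A to CACNA1I and CACNA1S, were examined in 3 established human melanoma cell lines grown in low oxygen and in normoxia. They are 10 of the 60656 gene IDs in the count table. The family was chosen by the counts of 1 member, CACNA1B, which were high in hypoxia in 2 of the lines, so hypoxia against normoxia is described for every member and tested for none. A2058, A375 and SKMEL-5 cells in hypoxia (1% oxygen tension) were each set against the same line in normoxia. The labels name no treatment other than oxygen. Each of the 6 groups had 2 libraries, which the design text calls biological duplicates. The labels do not say whether these were separate cultures, so p-values measure the spread between these libraries, which may be technical. RNA was sequenced in bulk, in which fewer cells of a type and less RNA per cell cannot be told apart.

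A pore subunit is a single long protein that folds into a channel, opens when the membrane depolarizes and lets calcium into the cell. The Cav1 (L-type) and Cav2 (P/Q-, N- and R-type) channels need strong depolarization and carry auxiliary beta and alpha2delta subunits, whereas the Cav3 (T-type) channels open near the resting potential. Cav2 channels are best known at nerve endings, where the calcium they admit releases transmitter. Cav1 channels couple depolarization to contraction, secretion and transcription, and Cav3 channels serve pacemaking. Melanocytes, the cells from which melanoma arises, come from the neural crest, and T-type and L-type channels have been studied in melanoma cells.

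CACNA1B, the N-type pore, had the highest counts of all members in hypoxic A375 and SKMEL-5 cells and at most 4 counts in their normoxic libraries. It lies on chromosome 9 at 137877789 to 138124624, plus strand (GENCODE 29, GRCh38). CACNA1I, a T-type pore on chromosome 22 at 39570753 to 39689737, plus strand, was higher in hypoxia in each line at counts of 24 or fewer. The 250 bases before the RefSeq start of both genes (GRCh38.p14) are shown. The core word bound by hypoxia-inducible factors stands in both, and also in the window of CACNA1D. Capitals mark that word, ACGTG or GCGTG, read on both strands, so that CACGT and CACGC are matches on the opposite strand. The RefSeq start of CACNA1B lies 7 bases before its GENCODE start. The stretch of CACNA1B is chr9:137877532-137877781, plus strand, and that of CACNA1I is chr22:39570503-39570752, plus strand.
CACNA1B: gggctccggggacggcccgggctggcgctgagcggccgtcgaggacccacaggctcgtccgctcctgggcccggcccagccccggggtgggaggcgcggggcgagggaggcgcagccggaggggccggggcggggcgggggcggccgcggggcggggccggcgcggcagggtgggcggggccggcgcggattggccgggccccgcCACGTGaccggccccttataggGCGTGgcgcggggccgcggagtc
CACNA1I: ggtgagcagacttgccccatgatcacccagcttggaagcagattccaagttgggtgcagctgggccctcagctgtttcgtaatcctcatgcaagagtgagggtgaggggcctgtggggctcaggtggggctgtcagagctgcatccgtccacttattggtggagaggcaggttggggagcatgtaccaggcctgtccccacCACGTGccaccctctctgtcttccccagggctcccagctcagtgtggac
In CACNA1B the palindrome CACGTG, which counts as 2 overlapping matches, begins 45 bases before the start, and GCGTG begins 23 bases before it. In CACNA1I the palindrome begins 49 bases before the start and is the only match. The promoter table held 8 of the 10 members, and CACNA1G and CACNA1H were not scanned. CACNA1D had 1 match, 152 bases before its start, and CACNA1A, CACNA1C, CACNA1E, CACNA1F and CACNA1S had none in this window. The windows of CACNA1A, CACNA1C, CACNA1D and CACNA1E lie far inside their GENCODE genes, and their GENCODE starts were not scanned. The CACNA1D window, for example, ends at 53494610, while its GENCODE gene starts at 53328963. Of the 35116 promoters in the table, 43.2% held at least 1 match, 19.4% held at least 2 and 7.76% held at least 3. GC content was 85.2% for CACNA1B and 60.8% for CACNA1I, with a median of 58.0% over the table. A match describes letters only.

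Library totals ran from 33831569 to 54202819 counts. Levels are given as TMM-scaled CPM, the usual count relative to the scaled library total. A count of 0 can hide up to 3 counts, or 0.0553 to 0.0887 CPM of the library total (counting error only). CA9, the hypoxia-induced carbonic anhydrase, had 352 to 725 CPM in the hypoxic libraries and 0.0826 to 19.0 CPM in the normoxic ones. Of the 6 hypoxic libraries 3 stood apart, 1 from each line. On the first principal component of log2 CPM centred by line (47.2% of the variance), library 2 of A2058 scored 72.7, library 1 of A375 scored 132 and library 1 of SKMEL-5 scored 108, and every other library scored below 0. The libraries named A375 and SKMEL-5 were very alike. Over the 19636 tested genes, which are not independent replicates, Pearson's r was 0.912 to 0.990 between them (log2 CPM) and 0.917 to 0.982 within A375. edgeR's quasi-likelihood test called 0 genes between them in normoxia (0.0%; 387 at an unadjusted p under 0.05, 12 by DESeq2, 1 by limma-voom). A2058 libraries correlated with the rest at 0.810 to 0.880. MLANA and TYR, pigment cell genes, had 0 counts in every A375 and SKMEL-5 library, while 8 of 8 melanocyte markers were detected in A2058. The other markers of that list were detected in every A375 and SKMEL-5 group. The 8 melanocyte markers summed to 2584 to 8009 CPM in A2058 hypoxia against 2645 to 2646 CPM in A2058 normoxia. They summed to 867 to 1078 CPM in A375 hypoxia against 1039 to 1364 CPM in A375 normoxia. In SKMEL-5 they summed to 926 to 1078 CPM in hypoxia against 1036 to 1570 CPM in normoxia. A list of 7 fibroblast markers summed to 63.6 to 106 CPM in A2058 hypoxia against 25.3 to 27.3 CPM in A2058 normoxia, and to 20.5 to 21.5 CPM in SKMEL-5 hypoxia against 10.3 to 13.3 CPM in SKMEL-5 normoxia. In A375 it summed to 14.8 to 16.7 CPM in hypoxia against 15.1 to 17.4 CPM in normoxia. The part of either list in the values that follow was not tested. A like value in A375 and SKMEL-5 is therefore not counted as an independent repeat.

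Of the 10 members, 6 passed the low-count filter (CACNA1A, CACNA1B, CACNA1D, CACNA1G, CACNA1H and CACNA1I). CACNA1C, CACNA1E, CACNA1F and CACNA1S did not, with highest counts of 5, 3, 1 and 10 in any library. The plot of the 10 members by library gives every value.

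**Figure D1:**
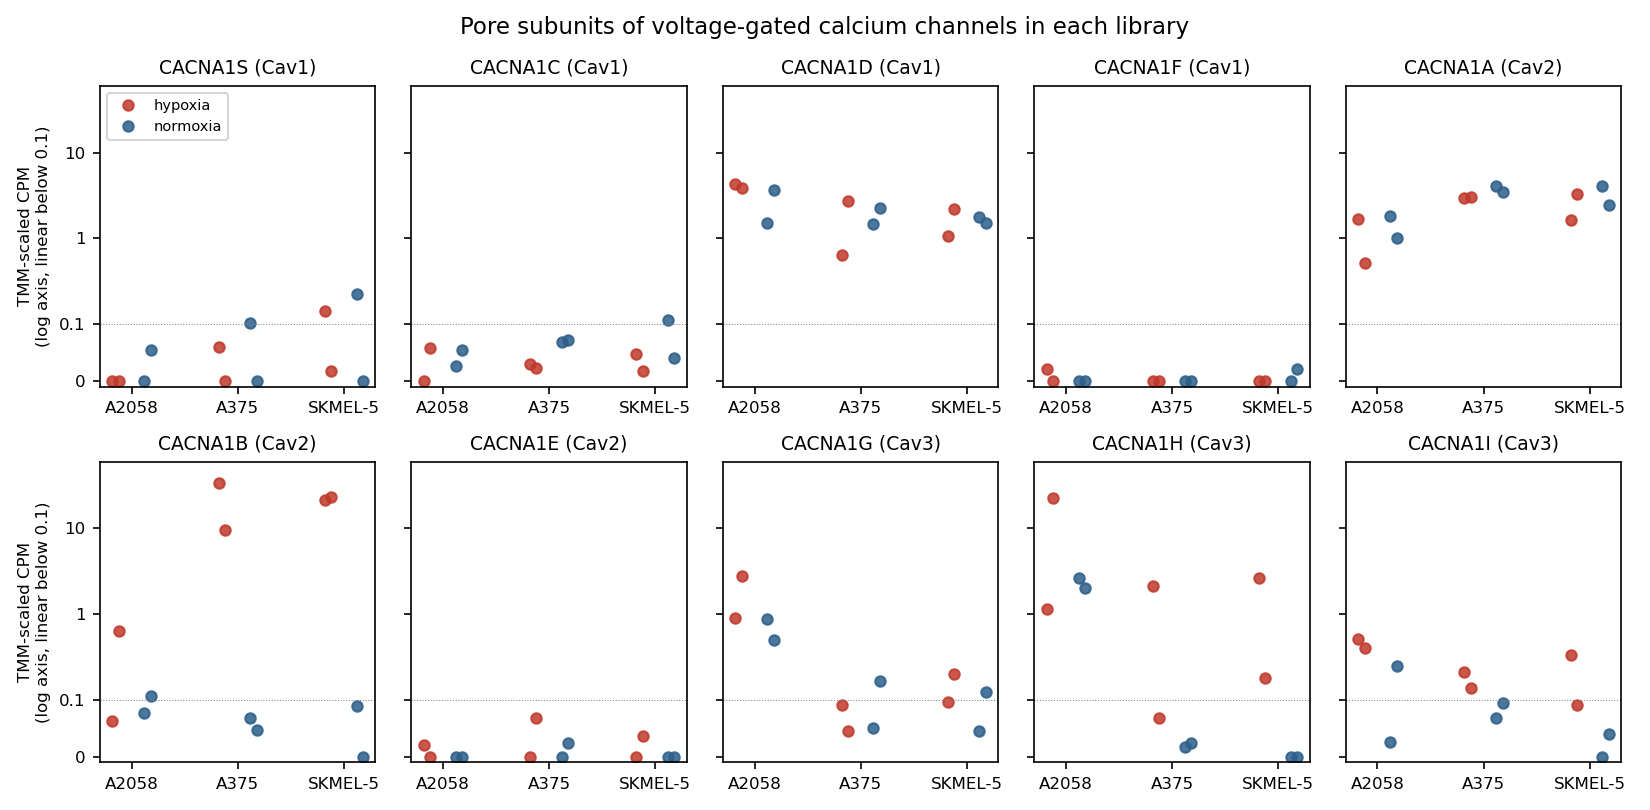
TMM-scaled CPM of the 10 pore subunits (vertical axis, logarithmic above 0.1 and linear below) in A2058, A375 and SKMEL-5, with 1 point a library, hypoxia (red) left of normoxia (blue). CACNA1B lies between 9.63 and 33.5 CPM in hypoxic A375 and SKMEL-5 libraries and at 0.0896 CPM or less in their normoxic libraries.

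Among the Cav2 pores, CACNA1B (N-type) had 1114 and 424 counts in A375 hypoxia (libraries 1 and 2 here and below), against 4 and 2 counts in A375 normoxia. In SKMEL-5 it had 899 and 1309 counts in hypoxia, against 4 and 0 in normoxia. In A2058 it had 3 and 22 counts in hypoxia, against 3 and 4 in normoxia. The hypoxic and normoxic libraries thus did not overlap in A375 and SKMEL-5, and they overlapped in A2058, where hypoxia 1 stood at the normoxic level. Averages were 21.6 ± 16.9 CPM in A375 hypoxia and 0.0574 ± 0.0143 CPM in A375 normoxia (SD, n = 2 each). In SKMEL-5 they were 22.5 ± 1.46 CPM in hypoxia and 0.0448 ± 0.0634 CPM in normoxia, and in A2058 0.348 ± 0.403 CPM in hypoxia and 0.0935 ± 0.0235 CPM in normoxia. The normoxic levels of all 3 lines were near or under the limit of 3 counts, so the size of the ratio is known only roughly. Pooled over libraries, the ratio of hypoxia to normoxia was 337 in A375 (95% counting interval 154 to 918, exact binomial), 532 in SKMEL-5 (207 to 1953) and 3.27 in A2058 (1.37 to 8.95). The fitted log2 differences were 8.46 ± 1.27, 8.93 ± 1.31 and 1.82 ± 1.14 (SE) in A375, SKMEL-5 and A2058.

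The A2058 value rested on the library that stood apart, which held 22 of its 25 hypoxic counts. Without the 3 libraries that stood apart, the log2 difference of CACNA1B was -0.57 for A2058, 7.26 for A375 and 9.0 for SKMEL-5. Between the hypoxic libraries of a line, the one that stood apart was 2.64 higher on the log2 scale in A2058 and 1.79 higher in A375, and 0.13 lower in SKMEL-5. Neuron markers, a list of 11 genes, summed to 66.5 to 92.7 CPM in A375 hypoxia against 48.8 to 53.0 CPM in A375 normoxia. They summed to 89.9 to 90.7 CPM in SKMEL-5 hypoxia against 90.3 to 101 CPM in SKMEL-5 normoxia, and to 13.8 to 14.4 CPM in A2058 hypoxia against 15.1 to 15.8 CPM in A2058 normoxia. DCX, a marker of young neurons, was at 0 counts in every A375 and SKMEL-5 library, and ELAVL4 also in SKMEL-5 hypoxia. The other neuron markers were detected in each A375 and SKMEL-5 group. In A2058 only ELAVL4 was at 0 counts. A list of 6 keratinocyte markers summed to 77.3 to 144 CPM in A375 hypoxia against 50.3 to 57.0 CPM in A375 normoxia, and to 78.6 to 87.2 CPM in SKMEL-5 hypoxia against 81.1 to 103 CPM in SKMEL-5 normoxia. It summed to 51.7 to 54.6 CPM in A2058 hypoxia against 43.3 to 75.3 CPM in A2058 normoxia. DSG3, a defining marker, was at 0 counts in every group. KRT1 was also at 0 counts in every A375 and SKMEL-5 group, and TP63 in A375 hypoxia. In A2058 KRT5 was at 0 counts in both groups, KRT1 in hypoxia and TP63 in normoxia. The other keratinocyte markers were detected in each group. The neuron and keratinocyte lists were thus higher in hypoxia without overlap in A375 and not in SKMEL-5, and their part in the CACNA1B values was not tested. A list of 6 blood cell markers summed to 3.15 CPM or less in every library. CACNA1B overlaps an antisense gene, ENSG00000203987, which had 2 counts over the 12 libraries.

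CACNA1A, the P/Q-type pore of many central synapses (chromosome 19, 13206442 to 13633025, minus strand), was detected in every library. It had 79 and 18 counts in A2058 hypoxia against 71 and 37 in A2058 normoxia, 98 and 132 in A375 hypoxia against 240 and 148 in A375 normoxia, and 69 and 182 in SKMEL-5 hypoxia against 183 and 120 in SKMEL-5 normoxia. In CPM the libraries overlapped in A2058 and SKMEL-5 and were lower in hypoxia in A375 (2.95 and 3.0 CPM against 4.05 and 3.50 CPM). The pooled ratio was close to 0.8 in all 3 lines, namely 0.822 in A2058 (0.618 to 1.09), 0.778 in A375 (0.658 to 0.918) and 0.798 in SKMEL-5 (0.672 to 0.946), with intervals for counting error only. The fitted mean of the 3 lines was -0.38 ± 0.38 on the log2 scale, within its error. CACNA1E, the R-type pore, had 7 counts in all, with 0 counts in 8 of the 12 libraries.

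Among the Cav1 pores, only CACNA1D (chromosome 3, 53328963 to 53813733, plus strand) was detected in every library at more than a few counts. This L-type pore, which opens at more negative potentials than CACNA1C and serves in hair cells and the sinus node, had 204 and 135 counts in A2058 hypoxia against 59 and 133 in A2058 normoxia. It had 21 and 119 counts in A375 hypoxia against 88 and 95 in A375 normoxia, and 44 and 121 in SKMEL-5 hypoxia against 80 and 74 in SKMEL-5 normoxia. The libraries overlapped in A375 and SKMEL-5. In A2058 both hypoxic libraries (4.29 and 3.88 CPM) stood just above the higher normoxic library (1.51 and 3.66 CPM), a step smaller than the gap between the normoxic libraries. The libraries that stood apart were the lower of their pair in all 3 lines, with log2 gaps of 0.14 for A2058, 2.02 for A375 and 1.02 for SKMEL-5. CACNA1D overlaps DCP1A (20206 counts over the 12 libraries) and CHDH (331 counts) on the other strand. Some of its counts could be theirs, since no source used here gives the strand setting of the counting.

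The other Cav1 pores were near the limit of detection. CACNA1C, the L-type pore of heart and smooth muscle, had 24 counts over the 12 libraries, with 0 to 5 in each. It overlaps DCP1B on the other strand, with 6993 counts. CACNA1S, the voltage sensor of skeletal muscle, had 27 counts, with 0 in 6 libraries, and overlaps an antisense gene with 35 counts. CACNA1F, the pore of photoreceptor terminals, had 2 counts. No difference with oxygen was detectable for these 3 at this depth.

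Among the Cav3 pores, CACNA1H (chromosome 16, 1153121 to 1221772, plus strand), a T-type pore of sensory neurons and endocrine cells, had 55 and 781 counts in A2058 hypoxia against 103 and 73 in A2058 normoxia. In A375 it had 71 and 3 counts in hypoxia against 1 and 1 in normoxia, and in SKMEL-5 111 and 10 in hypoxia against 0 and 0 in normoxia. Hypoxic libraries were above normoxic ones in A375 and SKMEL-5 and overlapped them in A2058. The high hypoxic library was the one that stood apart in all 3 lines, with log2 gaps of 4.22 for A2058, 4.26 for A375 and 3.58 for SKMEL-5. Of all tested genes, 24.9% were higher and 29.9% lower in the library that stood apart in all 3 lines, with 3.71% higher and 4.95% lower by 2-fold or more. Without those libraries the log2 difference between hypoxia and normoxia was -1.03 in A2058, 1.61 in A375 (3 counts against 1 and 1) and 6.07 in SKMEL-5 (10 counts against 0 and 0). With them it was 2.34 ± 1.56, 5.59 ± 2.13 and 8.95 ± 2.82 (SE), where the SKMEL-5 value depends on the prior count, and the pooled ratio there was at least 38.9-fold higher in hypoxia, taking 3 counts over the normoxic group.

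CACNA1G (chromosome 17, 50561068 to 50627474, plus strand), the T-type pore of thalamic neurons, was counted mainly in A2058. It had 43 and 96 counts in A2058 hypoxia against 34 and 18 in A2058 normoxia, and 11 or fewer in every other library. The pooled ratio in A2058 was 2.45 (1.77 to 3.43). Hypoxia 1 and normoxia 1 were nearly level there, at 0.905 and 0.872 CPM, and the contrast came from the library that stood apart, at 2.76 CPM, and from normoxia 2, at 0.496 CPM.

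CACNA1I, the T-type pore of the thalamic reticular nucleus, had 24 and 14 counts in A2058 hypoxia against 1 and 9 in A2058 normoxia, 7 and 6 in A375 hypoxia against 4 and 4 in A375 normoxia, and 14 and 5 in SKMEL-5 hypoxia against 0 and 2 in SKMEL-5 normoxia. It was the member whose hypoxic libraries lay above the normoxic ones in all 3 lines. Of all tested genes, 4.86% did so, and 2.79% lay below. The normoxic libraries of CACNA1I held 9 counts or fewer, and on them alone it would not have passed the low-count filter. The filter thus favoured such a separation, so nothing is read from it beside these shares. The pooled ratios were 3.48 in A2058 (1.70 to 7.83), 2.13 in A375 (0.820 to 5.94) and 9.15 in SKMEL-5 (2.21 to 81.0), and in A375 the interval for counting error alone included 1.

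Counted by line, hypoxic libraries lay above normoxic ones without overlap for CACNA1D, CACNA1G and CACNA1I in A2058, and for CACNA1B, CACNA1H and CACNA1I in both A375 and SKMEL-5. The 1 case below was CACNA1A in A375. Over all tested genes the shares without overlap were 20.5% above and 18.6% below in A2058, 18.1% and 14.2% in A375, and 18.5% and 19.7% in SKMEL-5. By edgeR's test 0.00509% of tested genes were called higher and 0.00509% lower in A2058, and 0.0% in A375 and in SKMEL-5. CACNA1B chose the family in this contrast, so nothing is read from these counts. Members that passed the low-count filter through their hypoxic libraries, as CACNA1B did, had to differ. CACNA1I also passed only with its hypoxic libraries, which favoured a separation.

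To compare members with each other, CPM was divided by the length of the longest coding transcript in GENCODE 29, between 6070 bases for CACNA1F and 16171 bases for CACNA1E. Over the 10 members, CPM per kilobase summed to 4.13 and 1.66 in A375 hypoxia against 0.676 and 0.699 in A375 normoxia, and to 2.89 and 3.08 in SKMEL-5 hypoxia against 0.732 and 0.472 in SKMEL-5 normoxia. In A2058 the sums were 0.983 and 3.67 in hypoxia against 0.820 and 0.880 in normoxia. Of this sum, CACNA1B held 82.7% and 59.1% in A375 hypoxia against 1.02% and 0.692% in A375 normoxia, and 75.8% and 77.9% in SKMEL-5 hypoxia against 1.25% and 0% in SKMEL-5 normoxia. It held 0.656% and 1.76% in A2058 hypoxia against 0.959% and 1.28% in A2058 normoxia. The stacked shares show a sum made up mainly of the N-type pore in hypoxic A375 and SKMEL-5 libraries and not in A2058.

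**Figure D2:**
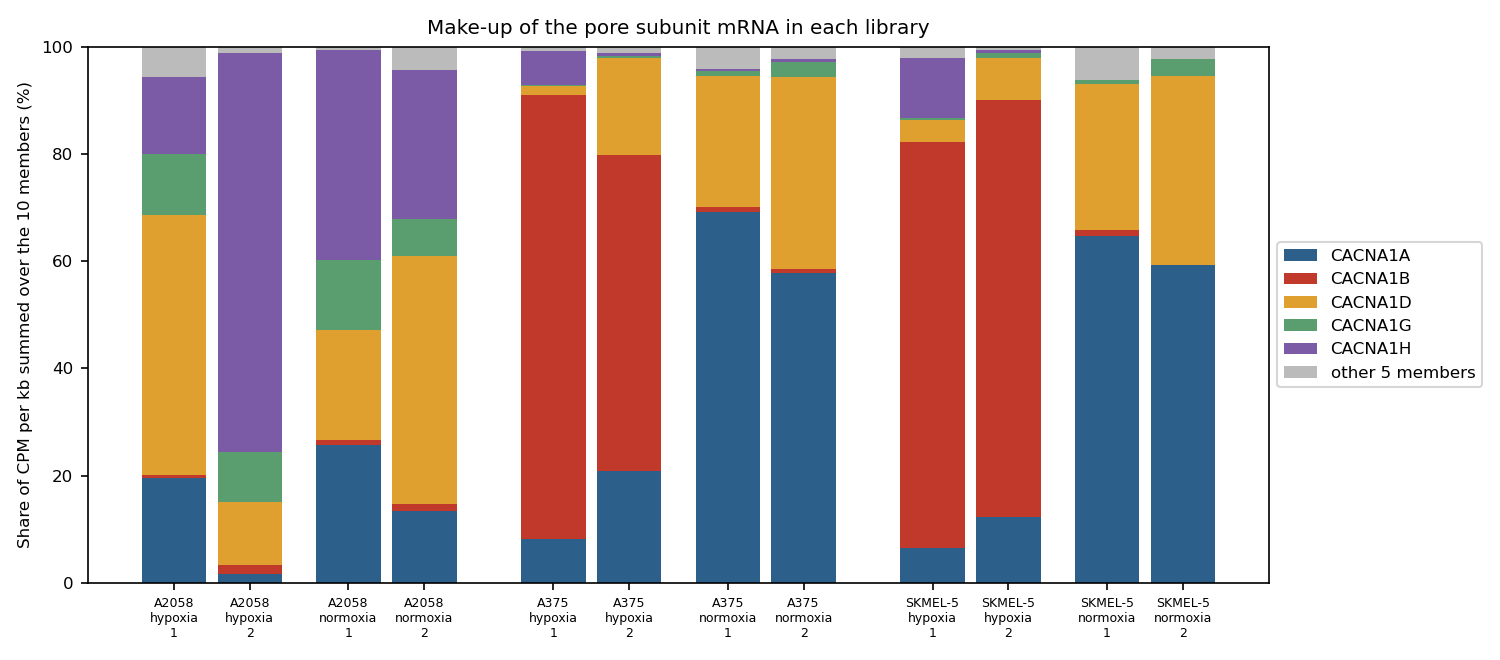
Share of each pore subunit in the CPM per kilobase summed over the 10 members (vertical axis, percent), with 1 bar a library, hypoxia left of normoxia within each line. CACNA1B fills 59.1% to 82.7% of the bar in hypoxic A375 and SKMEL-5 libraries, CACNA1A 57.9% to 69.1% in their normoxic libraries, and CACNA1H 74.4% in A2058 hypoxia 2.

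In normoxic A375 and SKMEL-5 cells the order of the levels was CACNA1A, then CACNA1D, then all others. CACNA1A had 0.468 and 0.404 CPM per kilobase in A375 and 0.473 and 0.280 in SKMEL-5. CACNA1D had 0.165 and 0.250 in A375 and 0.199 and 0.167 in SKMEL-5, below CACNA1A in both lines without overlap. No other member exceeded 0.0363 in these 4 libraries. In normoxic A2058 cells CACNA1D (0.168 and 0.407) and CACNA1H (0.322 and 0.245) had the highest means. They could not be ordered, since their libraries overlapped. CACNA1A (0.210 and 0.118) and CACNA1G (0.107 and 0.0609) each lay below the libraries of CACNA1H. CACNA1G also lay below CACNA1D, whereas CACNA1A overlapped CACNA1D and could not be ordered against it.

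In hypoxia CACNA1B led in A375 (3.42 and 0.984 CPM per kilobase) and SKMEL-5 (2.19 and 2.40), followed by CACNA1A (0.340 and 0.346 in A375, 0.190 and 0.377 in SKMEL-5) without overlap. CACNA1D and CACNA1H overlapped each other in both lines, and both also overlapped CACNA1A in SKMEL-5. In A2058 hypoxia, CACNA1D had 0.478 and 0.432 and CACNA1H had 0.141 and 2.73, so that CACNA1H was the lower of the pair in hypoxia 1 and the higher in hypoxia 2. All annotated exons were also used in place of the transcript, a length chosen after the data were seen. By group means CACNA1A then fell behind CACNA1D in normoxic A375 and SKMEL-5 cells, from the first place to the second. These means were close (0.0875 against 0.0907 in A375, 0.0756 against 0.0799 in SKMEL-5). The libraries of the pair overlapped in both lines, so the pair could not be ordered. CACNA1B stayed first in hypoxic A375 and SKMEL-5 cells. By group means, CACNA1A moved from place 2 to place 4 in hypoxic A375 and SKMEL-5 cells, behind CACNA1H and CACNA1D. In A2058 it moved from place 4 to place 6 in hypoxia and from place 3 to place 4 in normoxia.

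The difference between lines in normoxia was not used to choose the family and was tested. CACNA1H and CACNA1G, both T-type, were higher in A2058 than in the mean of A375 and SKMEL-5. CACNA1H averaged 2.33 ± 0.447 CPM in A2058 normoxia, against 0.0203 ± 0.00484 CPM in A375 normoxia and 0 counts in SKMEL-5 normoxia (SD, n = 2 each). With 176 counts in A2058 and 2 in the other 4 libraries, the pooled ratio was 228 with a counting interval of 62.3 to 1901, and the fitted log2 difference was 8.18 ± 1.85 (SE, edgeR quasi-likelihood, adjusted p = 0.0125). CACNA1G averaged 0.684 ± 0.266 CPM in A2058 normoxia, against 0.108 ± 0.0814 CPM in A375 and 0.0831 ± 0.0542 CPM in SKMEL-5, a log2 difference of 2.83 ± 0.73 (edgeR adjusted p = 0.0204) and a pooled ratio of 7.50 (4.32 to 13.6). All 4 A375 and SKMEL-5 libraries lay below both A2058 libraries for both genes, as they did for 22.4% of all tested genes.

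The 2 calls were among the 6 members tested, where 9.51% of all tested genes were called higher in A2058 and 8.43% lower. CACNA1G passed the low-count filter only through A2058 and so had to differ. Nothing is read from the count of calls, nor from any p-value of CACNA1G between lines, beyond its counts. The CACNA1G call was lost without A2058 normoxia 1 (edgeR adjusted p = 0.160), A375 normoxia 1 (0.0859) or SKMEL-5 normoxia 1 (0.0749), and the CACNA1H call without A375 normoxia 1 (0.0566). Without the 3 hypoxic libraries that stood apart, which only lend their spread to this contrast, both calls held (edgeR adjusted p = 0.000426 for CACNA1H and 0.0203 for CACNA1G). Against A375 alone the edgeR adjusted p was 0.0739 for CACNA1H and 0.0841 for CACNA1G, and against SKMEL-5 alone 0.0480 and 0.0584. In these contrasts 6.04% of all tested genes were called higher and 6.85% lower in A2058 than in A375, and 6.02% higher and 7.22% lower than in SKMEL-5.

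The other 4 tested members did not pass the threshold between lines. CACNA1A was 1.42 ± 0.567 CPM in A2058 normoxia against 3.78 ± 0.386 CPM in A375 and 3.26 ± 1.18 CPM in SKMEL-5, lower in both A2058 libraries than in the other 4 (as were 24.0% of all tested genes), with a log2 difference of -1.30 ± 0.60 (edgeR adjusted p = 0.172). The log2 difference was 0.56 ± 0.62 for CACNA1D (adjusted p = 0.597), 0.85 ± 1.15 for CACNA1B (0.669) and 1.64 ± 1.03 for CACNA1I (0.321), all from edgeR. CACNA1D and CACNA1I changed sign without A2058 normoxia 2, to -0.22 and -0.65. Between A375 and SKMEL-5 in normoxia, edgeR called 0 of the 6 members, with 0 at an unadjusted p under 0.05 and 0 by DESeq2 or limma-voom.

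The auxiliary subunits, which set the surface level and gating of Cav1 and Cav2 pores, were from a list chosen with earlier results of these data known, and their difference between lines was looked at after values were seen. CACNB2, a cytoplasmic beta subunit, had 56 and 118 counts in A2058 hypoxia against 74 and 53 in A2058 normoxia, and 2 or fewer in every A375 and SKMEL-5 library. In normoxia its log2 difference, A2058 minus the others, was 7.66 ± 1.05 (edgeR adjusted p = 0.00115). CACNB1, CACNB3 and CACNB4 were counted in all 12 libraries and did not pass the threshold, at 0.51 ± 0.43, 0.16 ± 0.62 and 1.36 ± 0.63 (adjusted p = 0.471, 0.896 and 0.171).

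The extracellular alpha2delta subunits differed by line in both directions. CACNA2D4 had 1067 and 727 counts in A2058 hypoxia and 1079 and 379 in A2058 normoxia, against 9 to 32 in A375 and SKMEL-5 libraries (5.60 ± 0.51, edgeR adjusted p = 4.87e-05). CACNA2D1, the gabapentin receptor, had 27 and 23 counts in A2058 hypoxia and 1 and 36 in A2058 normoxia, against 126 to 685 in the others (-4.34 ± 1.08, adjusted p = 0.0172). CACNA2D3 had 0 counts in A2058 normoxia against 118 over the normoxic A375 and SKMEL-5 libraries, at least 15.2-fold lower, taking 3 counts over the A2058 group (adjusted p = 0.00959). CACNA2D2 was not tested, with 5 counts in A2058 normoxia and 3 in the others.

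Of 8 gamma subunits, a family in which several members traffic glutamate receptors, 3 were tested. CACNG8 had 0 counts in every A2058 library against 158 to 2053 in the others, at least 622-fold lower in A2058 normoxia. CACNG6 and CACNG7 had 0 counts in A2058 normoxia and were at least 107-fold and 9.50-fold lower. These bounds take 3 counts over the A2058 group and leave out the counting error of the other lines. The edgeR adjusted p was 0.000238 for CACNG8, 0.000157 for CACNG6 and 0.0220 for CACNG7. Without 1 library, CACNG7 was no longer called without A2058 normoxia 1 (0.135) or 2 (0.0974), A375 normoxia 1 (0.0570) or SKMEL-5 normoxia 1 (0.0553), and CACNA2D3 without A2058 normoxia 1 (0.0739) or 2 (0.0524). CACNB2, CACNA2D1, CACNA2D4, CACNG6 and CACNG8 were called in every fit that left out 1 library. CACNB2 passed the low-count filter only through A2058, and CACNA2D3, CACNG6, CACNG7 and CACNG8 only through A375 and SKMEL-5. These 5 genes had to differ between lines, so nothing is read from their p-values beyond the counts.

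**Figure D3:**
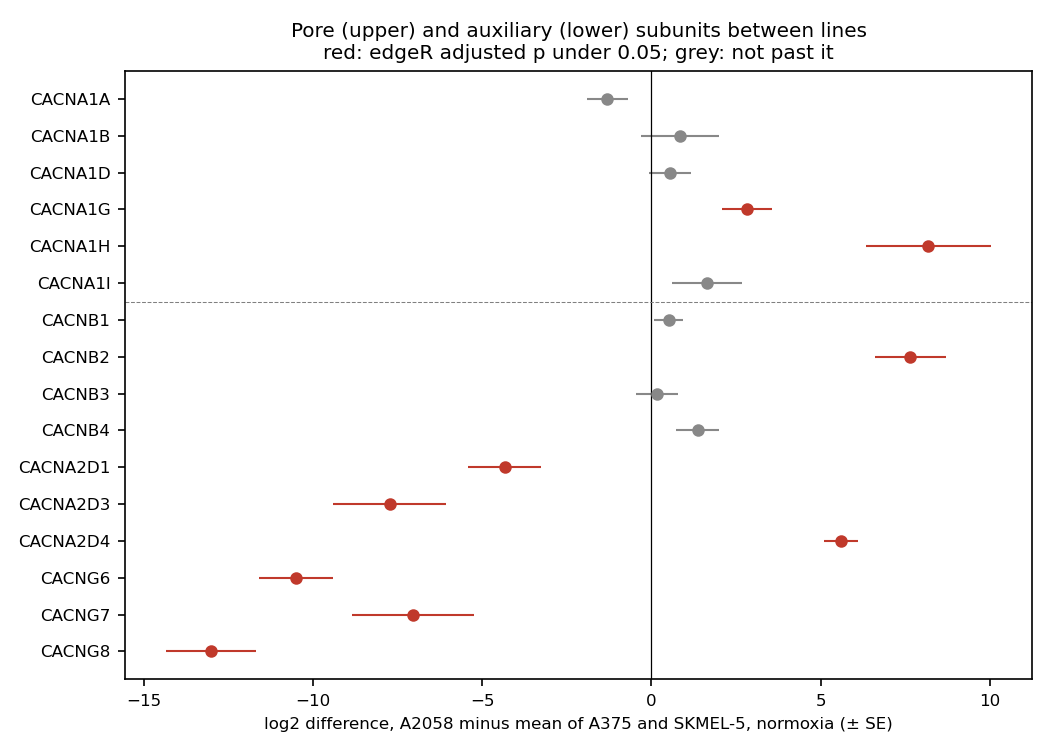
Log2 difference in normoxia, A2058 minus the mean of A375 and SKMEL-5 (horizontal axis, point and SE), for the 6 tested pore subunits above the dashed line and 10 auxiliary subunits below it. CACNA1H (8.18) and CACNA1G (2.83) lie right of 0 past the edgeR threshold, CACNB2 and CACNA2D4 likewise, while CACNA2D1, CACNA2D3, CACNG6, CACNG7 and CACNG8 lie left of it; values of genes at 0 counts in a line depend on the prior count.

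Genes that work with the channels were tested for hypoxia against normoxia, as 11 lists with 113 members (auxiliary subunits, channel regulators, store and endoplasmic reticulum channels, pumps and exchangers, the mitochondrial uniporter, calmodulin and calcineurin effectors, calcium-gated potassium channels, kin channels and the release machinery). Of these, 88 were tested. In the mean of the 3 lines edgeR called 2 higher in hypoxia, ITPR1 and NALCN, and 0 lower (17 of the 88 at an unadjusted p under 0.05, 8 higher and 1 lower by DESeq2, 1 higher and 0 lower by limma-voom). Over all tested genes 0.978% were called higher and 0.143% lower. In the mean of A2058 and A375 these shares were 0.173% and 0.0713%, and in the mean of A2058 and SKMEL-5 0.122% and 0.0509%, with 0 of the 88 called in either mean. The median log2 difference was 0.17 over the 88 genes and 0.02 over all tested genes.

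ITPR1, the inositol trisphosphate receptor that releases calcium from the endoplasmic reticulum, had 28.1 and 104 CPM in A2058 hypoxia against 12.6 and 18.8 CPM in A2058 normoxia. In A375 it had 77.6 and 26.4 CPM in hypoxia against 12.5 and 13.8 CPM in normoxia, and in SKMEL-5 54.4 and 25.8 CPM in hypoxia against 8.11 and 16.3 CPM in normoxia. The hypoxic libraries were above the normoxic ones in each line, and the higher of each hypoxic pair was the library that stood apart. The log2 difference was 1.93 ± 0.40 (edgeR adjusted p = 0.0491), and without those 3 libraries 0.95 ± 0.27 (adjusted p = 0.301).

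NALCN, the sodium leak channel, which shares the architecture of the calcium channel pores, had 23.8 and 32.8 CPM in A2058 hypoxia against 11.4 and 9.53 CPM in A2058 normoxia. It had 1.68 and 2.11 CPM in A375 hypoxia against 0.658 and 1.14 CPM in A375 normoxia, and 2.41 and 2.53 CPM in SKMEL-5 hypoxia against 0.493 and 0.911 CPM in SKMEL-5 normoxia. Hypoxic libraries were again above normoxic ones in each line, without a split by the libraries that stood apart. The log2 difference was 1.44 ± 0.27 (edgeR adjusted p = 0.0354). It was 1.40 ± 0.31 without those 3 libraries, with fewer samples and an adjusted p of 0.189. Both calls were lost in 9 of the 12 fits that left out 1 library.

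The auxiliary subunits did not pass the threshold in hypoxia. In the mean of 3 lines the log2 difference was 1.11 ± 0.43 for CACNB4 (edgeR adjusted p = 0.207), 0.95 ± 0.42 for CACNB3 (0.252), -0.02 ± 0.29 for CACNB1 (0.999), -0.27 ± 0.57 for CACNA2D1 (0.843), 0.89 ± 0.82 for CACNA2D3 (0.573) and 0.10 ± 0.35 for CACNA2D4 (0.923). CACNB3, at 20.5 to 124 CPM over the 12 libraries, stood at -0.054 without the libraries that stood apart. The gene with the smallest p was CACNG6 among gamma subunits (1.11 ± 0.63, adjusted p = 0.423), STAC2 among channel regulators (0.74 ± 0.40, 0.333), ATP2C1 among pumps (0.55 ± 0.22, 0.215) and MCUB of the uniporter (0.29 ± 0.20, 0.428). It was CAMKK1 among effectors (0.71 ± 0.25, 0.178) and KCNN3 among calcium-gated potassium channels (-1.33 ± 0.38, 0.118), all from edgeR. For CACNG6 and CACNA2D3 the A2058 part of the mean rested on 1 hypoxic count against 0 in normoxia. That part, 2.38 for CACNG6 and 2.37 for CACNA2D3 on the log2 scale, depends on the prior count. For CACNG6 the A375 value was -0.16 and the SKMEL-5 value 1.12. For CACNA2D3 they were 0.81 and -0.51, so nothing is read from the size of either mean. Within single lines edgeR called 0 of the 88, with 11, 5 and 8 at an unadjusted p under 0.05 in A2058, A375 and SKMEL-5, 2, 0 and 1 by DESeq2 and 0 by limma-voom. The test of a difference between lines in the hypoxia response called 0 (2 at an unadjusted p under 0.05, 0 by DESeq2 or limma-voom), with 0.0% of all tested genes called.

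**Figure D4:**
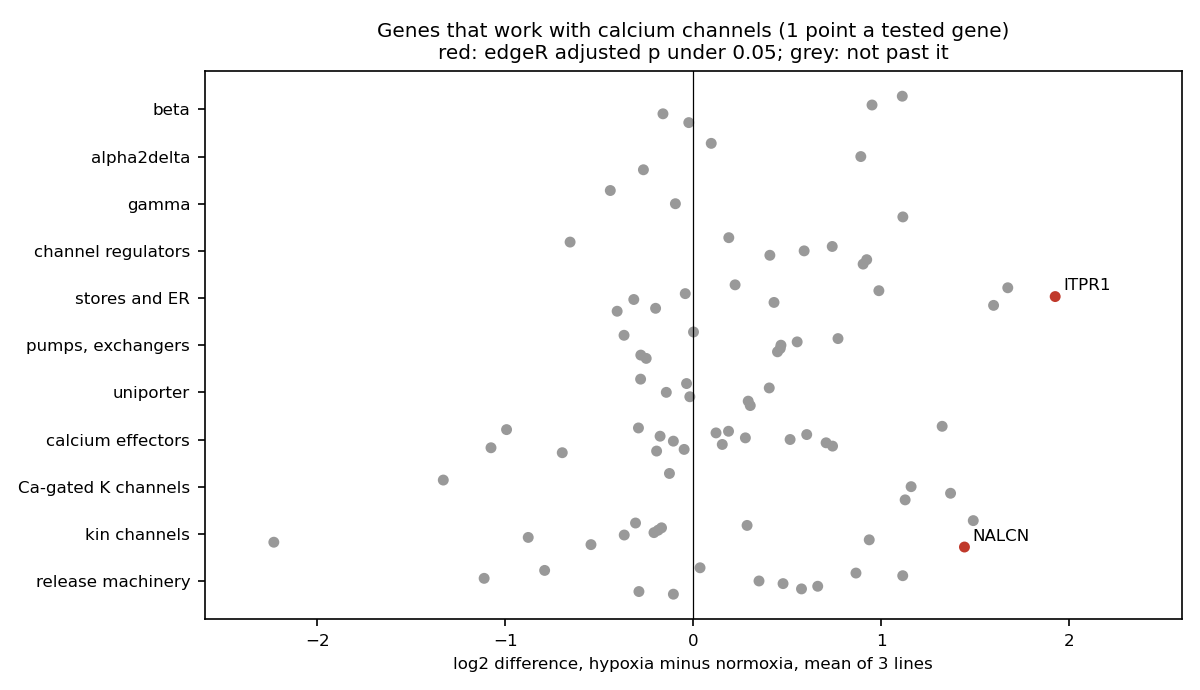
Log2 difference, hypoxia minus normoxia, mean of 3 lines (horizontal axis), of the 88 tested partner genes in 11 lists (rows), with 1 point a gene. ITPR1 (1.93) and NALCN (1.44) are the 2 points past the edgeR threshold (red).

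Around CACNA1B, GENCODE 29 places 15 other genes within 250 kilobases, of which 2 were tested. EHMT1, a histone methyltransferase gene on the same strand that ends 7773 bases before CACNA1B, had 3170 and 1190 counts in A2058 hypoxia against 2018 and 2963 in A2058 normoxia. It had 1604 and 3268 counts in A375 hypoxia against 4761 and 4241 in A375 normoxia, and 2465 and 3982 in SKMEL-5 hypoxia against 1976 and 3974 in SKMEL-5 normoxia. EHMT1 was thus not higher in hypoxia in the lines in which CACNA1B was: its libraries overlapped in SKMEL-5 and were lower in A375 hypoxia. TUBBP5, a tubulin pseudogene 25451 bases downstream whose counts could hold reads of its paralogs, had 25 to 56 counts in A2058 and 6 or fewer in A375 and SKMEL-5. In A375 it had 3 and 2 counts in hypoxia against 0 and 0 in normoxia. In SKMEL-5 it had 5 and 4 in hypoxia against 6 and 2 in normoxia. These counts are too near the limit of detection to be read. The plot of the 3 genes shows the high values of hypoxic A375 and SKMEL-5 libraries for CACNA1B and for neither neighbour.

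**Figure D5:**
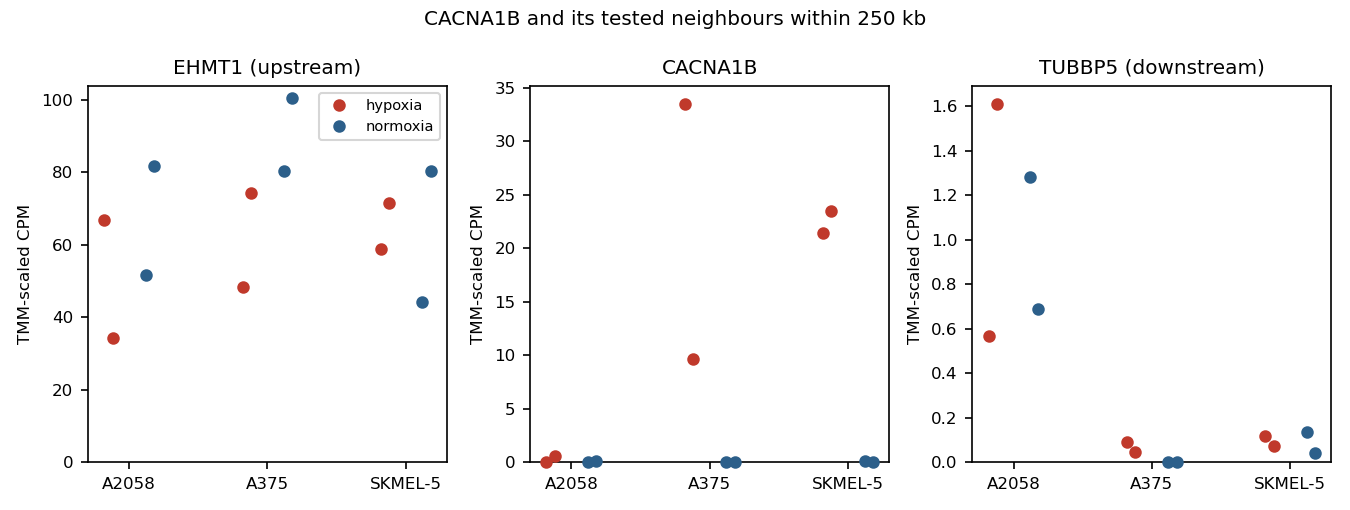
TMM-scaled CPM (vertical axes, linear from 0, each with its own scale) of EHMT1, CACNA1B and TUBBP5 by line, with 1 point a library, hypoxia (red) left of normoxia (blue). CACNA1B reaches 33.5 CPM in A375 hypoxia; EHMT1 is detected in every library, and TUBBP5 exceeds 0.5 CPM only in A2058.

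The genes whose pattern over the 12 libraries was most like that of CACNA1B were found by the root-mean-square difference in centred log2 CPM, among 14332 protein-coding genes. They were TMEM74B (1.43), MAP3K15 (1.86), NOG (2.01), ZP1 (2.02) and RORA (2.11), where CACNA1B itself had a root mean square of 3.54. TMEM74B, a membrane protein gene, had 10.7 and 0.750 CPM in A375 hypoxia against 0.169 and 0.0237 CPM in A375 normoxia, and 10.6 and 2.07 CPM in SKMEL-5 hypoxia against 0.112 and 0 CPM in SKMEL-5 normoxia. In A2058 it had 0.168 and 0.345 CPM in hypoxia against 0.0513 and 0.110 CPM in normoxia. RORA, a nuclear receptor gene, had 38.8 and 9.36 CPM in A375 hypoxia against 2.48 and 0.900 CPM in A375 normoxia, and 0.652 and 3.28 CPM in A2058 hypoxia against 0.154 and 0.138 CPM in A2058 normoxia. In SKMEL-5 it had 36.7 and 18.6 CPM in hypoxia against 6.61 and 2.15 CPM in normoxia. In both genes the library that stood apart was the higher of the hypoxic pair in all 3 lines, whereas CACNA1B was nearly level between the hypoxic SKMEL-5 libraries. For the other members with a mean of at least 1 CPM, the nearest genes were RHEBL1, FCRLB and ZNF670 for CACNA1A (0.31 to 0.32), MAML3, DGCR2 and FZD8 for CACNA1D (0.29), and PRR36, RAB11FIP4 and JAG2 for CACNA1H (1.07 to 1.11).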

How the data were processed

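Per the labels' protocols, total RNA came from an RNeasy kit and libraries from a NuGen Universal Plus mRNA kit. Tools named in the submitters' processing notes are STAR 2.5.0a, Trim Galore 0.6.1 and bcl2fastq 2.20, with the build GRCh38. How reads were counted (tool, strand setting, annotation release) is not given in the sources used here. The table deposited by the authors holds raw, unnormalized counts for 60656 Ensembl IDs in 12 libraries (23267 IDs had no count). Columns were matched to samples by title. Symbols were found for 60445 IDs with the version ignored, and GENCODE 29 placed 58438.

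The filter was edgeR's filterByExpr over the 6 groups (edgeR 4.0.16 in R 4.3.3; minimum count 10, minimum total 15), which left 19636 genes. After TMM scaling, 1 quasi-likelihood model with a term for each group took in all 12 libraries (6 residual and 5.02 prior degrees of freedom, common biological coefficient of variation 0.453). p-values were Benjamini-Hochberg adjusted over all tested genes, an adjusted p under 0.05 was called, and SE is the absolute log2 difference over the square root of F. Log2 CPM used a prior count of 2. Ratios pool counts with TMM-scaled totals and have exact binomial 95% intervals. Intervals and the floor of 3 counts cover counting error only. Libraries of a group differed by more than counting noise (median chi-square per gene 8.83 to 41.9).

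The members and gene lists were chosen with earlier results of these data known. The genes named were all members, called genes of each list (up to 4) or the one with the smallest p, CACNB1 to CACNB4 and CACNA2D1 to CACNA2D4 where tested, CA9, and the 5 genes most like CACNA1B (3 for other members of at least 1 CPM). Other genes were named after their values were seen, and 1 gene that the rule names is not reported here. Alternatives were limma-voom (limma 3.58.1), DESeq2 1.42.0 and its size factors alone, no filter, a filter of 1 CPM in 2 libraries, a replicate block, leaving out each library or the 3 that stood apart, means of 2 lines, CPM of the library total and, added after seeing the data, exon-union length. The model code was tested on simulated counts.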

Additional observations from a re-analysis of the deposited data

How the results depend on the processing

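For the members called higher in A2058 in normoxia (2 against the mean of A375 and SKMEL-5, 0 against A375, 1 against SKMEL-5), a filter of 1 CPM gave 1 against the mean and 0 against SKMEL-5. DESeq2 gave 2 against A375 and 2 against SKMEL-5, no filter 1 and 2, and leaving out the 3 libraries that stood apart 1 and 2. Leaving out 1 library gave 0 to 2, 0 to 1 and 0 to 1. Of the partner genes, 2 were called higher in the mean of 3 lines, and 1 with DESeq2 size factors, limma-voom or the 1 CPM filter, 8 with DESeq2, 10 with no filter, 0 without the 3 libraries, 0 in the mean of A2058 and A375 or of A2058 and SKMEL-5, and 0 to 4 without 1 library. Called lower were 0, and 1 with DESeq2, 3 with no filter and 0 to 1 without 1 library. Within lines, DESeq2 called 2 higher in A2058 and 1 in SKMEL-5, and no filter called 4, 2 and 1 in A2058, A375 and SKMEL-5. Over all genes in that mean, 192 higher and 28 lower became 1110 and 433 with DESeq2, 1365 and 490 with no filter, and 27 and 3 without the 3 libraries. The cause was not tested.

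The log2 difference of CACNA1B, hypoxia minus normoxia, was 6.40 in the mean of 3 lines, 5.23 without the 3 libraries, 5.14 with A2058 and A375 alone and 5.38 with A2058 and SKMEL-5 alone. Without 1 library it was 5.64 to 7.75 in the mean, -0.53 to 2.73 in A2058, 7.26 to 9.08 in A375 and 7.93 to 12.97 in SKMEL-5, and in A2058 it was -0.57 without the 3 libraries. Signs turned for CACNB2 (-0.16; 0.074 with limma-voom, 0.22 with A2058 and A375), CACNB3 (0.95; -0.054 without the 3 libraries), CACNA2D1 (-0.27; 0.17 with limma-voom, 0.020 without the 3 libraries, 0.018 with A2058 and SKMEL-5) and CACNA2D4 (0.10; -0.26 with A2058 and SKMEL-5). CACNB2 had 0 counts in every A375 library. Its SE was 278 in the mean of 3 lines and 374 with A2058 and A375, so nothing is read from its sign. Without 1 library the ranges were -0.31 to 0.15 for CACNB1, -0.88 to 0.87 for CACNB2, -0.59 to 1.12 for CACNA2D1 and -0.084 to 0.39 for CACNA2D4, and between lines -0.22 to 1.09 for CACNA1D and -0.65 to 3.15 for CACNA1I.

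Replicate numbers did not pair hypoxic with normoxic libraries: within a line, deviations of same-numbered libraries correlated at -0.30, 0.23 and 0.26 in A2058, A375 and SKMEL-5 over 19636 genes. Between the normoxic groups of different lines they correlated at 0.26 to 0.58, and between the hypoxic groups at -0.47 to 0.80. With a replicate block 0 partner genes were called higher in hypoxia (edgeR adjusted p = 0.0841 for ITPR1 and 0.0803 for NALCN), and 78 higher and 13 lower over all genes. In the normoxia contrast between lines CACNA1H and CACNA1G were still called with the block (0.0151 and 0.0135).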

Other observations

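The partner genes also differed between lines in normoxia, which was looked at after values were seen. Of the 88 tested, edgeR called 8 higher and 19 lower in A2058 than in the mean of A375 and SKMEL-5, where 9.51% and 8.43% of all tested genes were called. Lower in A2058 were 4 of 11 tested genes of the release machinery with which Cav2 channels work at nerve endings. SYT1, the calcium sensor of release, had 5 and 19 counts in A2058 normoxia, against 338 to 766 in normoxic A375 and SKMEL-5 libraries (log2 difference -4.77 ± 0.71, edgeR adjusted p = 0.000934). SNAP25, a membrane fusion protein, had 2 and 0 counts against 60 to 123 (-5.99 ± 0.95, 0.00136), and PCLO, an active zone scaffold, had 2 and 3 against 451 to 867 (-7.48 ± 0.89, 0.000232). UNC13A, which primes vesicles, differed by -2.64 ± 0.76 (0.0332), a call lost without A2058 normoxia 1 (0.251) or 2 (0.0739), A375 normoxia 1 (0.107) or SKMEL-5 normoxia 1 (0.0846). RIMS2, an active zone protein, was higher in A2058, with 358 and 130 counts against 44 to 53 (2.65 ± 0.61, 0.0121), a call lost without A2058 normoxia 1 (0.164) or A375 normoxia 1 (0.0561). SNAP25, PCLO and UNC13A passed the low-count filter only through A375 and SKMEL-5, so they had to differ. STAC and REM1, with 0 counts in A2058 normoxia, also had to differ, as did CACNB2, CACNA2D3, CACNG6, CACNG7 and CACNG8. The lists were chosen with earlier results of these data known, so nothing is read from the counts of partner genes called between lines. NALCN was also higher in A2058, with 446 and 346 counts against 22 to 48 (3.72 ± 0.39, 0.000114).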
